A study of Mus musculus with 2 samples.

Results

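The genes described here are 38 of the 24091 genes in a table of RNA-seq read counts from mouse splenic γδ T cells, the T lymphocyte lineage with γ and δ chains in its antigen receptor. They serve protein folding in the endoplasmic reticulum (ER), entry of new proteins into it, the unfolded protein response (UPR) and ER-associated degradation (ERAD). They were chosen by gene symbol for these roles, with earlier results of these data known, and all 38 were found. Of these, 24 serve folding and translocation and 14 are UPR sensors, UPR factors or ERAD genes. The study holds 2 libraries of total RNA. One is of IL-2 expanded cells, and the other is of freshly isolated cells. Per the labels' protocols, sorted cells were activated with anti-CD3 bound to the plate and anti-CD28 in solution, and cultured for 5 days with 100 U/ml of interleukin 2 (IL-2). Both libraries carry the same protocol text. Only its treatment label and the design text mark the freshly isolated library as not cultured, and activation, culture and IL-2 are joined in the comparison. The labels give no number of animals and do not say whether animals were pooled.

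Total counts were 22204099 in the expanded library and 20379385 in the freshly isolated library. Levels are counts per 1000000 of the scaled library size (CPM), and 1 count equalled 0.0476 CPM in the expanded and 0.0465 CPM in the freshly isolated library. With 1 library per group, the differences could not be checked against replicates and no test was run. Folds are ratios of CPM, expanded over freshly isolated, with exact 95% intervals from the conditional binomial distribution of the counts, which cover counting error only. Genes of the CD3 complex, which carries the receptor signal in T cells, summed to 2094 CPM in expanded and 2231 CPM in freshly isolated cells. Of these 4 genes, Cd3d, Cd3e and Cd3g lay within 2-fold under every scaling tried, while Cd247, the ζ chain gene, had 243 CPM in expanded and 447 CPM in freshly isolated cells. The log2 fold of Cd247 was -0.88, and it was at least 2-fold lower with scaling by total count (-1.03) and by length and total (TPM, -1.27). The freshly isolated library also held transcripts that mark other spleen cells. The 14 B cell and plasma cell markers summed to 5.57 CPM in expanded and 952 CPM in freshly isolated cells, and 7 of them (Jchain, Cd79a, Ms4a1, Blnk, Cr2, Pax5 and Tnfrsf17) had 0 counts in expanded cells. Jchain alone made up most of the sum in freshly isolated cells. The 15 macrophage markers summed to 0.285 CPM in expanded and 995 CPM in freshly isolated cells, and 11 of them, among them Vcam1, Lyz2, C1qa and Cybb, had 0 counts in expanded cells. The part of such cells in the values below was not tested, and fewer cells of a type and less RNA per cell cannot be told apart.

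As background, secreted and membrane proteins enter the ER through the SEC61 channel and fold there with the help of the HSP70-type chaperone BiP, the HSP90-type chaperone encoded by Hsp90b1, the glycan-binding pair calnexin and calreticulin, and the protein disulfide isomerases. Proteins that fail to fold are moved back to the cytosol and degraded, which is ERAD. When unfolded proteins build up, the membrane sensors IRE1 (gene Ern1), ATF6 and PERK (gene Eif2ak3) start the UPR. IRE1 splices Xbp1 mRNA into the form that encodes the active factor, and ATF6 and XBP1 act on chaperone and ERAD genes. The same machinery is used at high level by cells that secrete much protein, such as plasma cells. Counts per gene do not tell spliced from unspliced Xbp1 mRNA, and they say nothing of the cleavage of ATF6 or of the activity of any sensor.

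Member promoters were searched for the ER stress response element (ERSE), the DNA element through which ATF6 and the factor NF-Y act on chaperone genes. The members were chosen for roles in ER folding and the UPR, so a high share with this element was likely from the start. The share is a description and no independent support. Promoters of 300 bases, from 250 before to 50 after the gene start, were taken from RefSeq (GRCm38.p6) for 32 of the 38 genes. Those of Derl1, Sec61a1, Hyou1, Atf6, Manf and Ssr2 were not used here. ERSE was searched on both strands as CCAAT, 9 bases of any kind and CCACG. It was found in 9 of the 32 genes (28.1%), against 37 of all 27025 genes in the promoter table (0.137%), a count that includes these 9. The 10 matches are shown because they sit in front of genes whose folds differ widely. Each line reads in the direction of the element with 5 flanking bases on each side, and the capitals mark CCAAT and CCACG. The coordinates are those of the element without its flanks.
Hspa5, chr2:34772025-34772043, + strand: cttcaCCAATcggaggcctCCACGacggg
Hsp90b1, chr10:86705533-86705551, + strand: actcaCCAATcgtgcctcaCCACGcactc
Hsp90b1, chr10:86705638-86705656, - strand: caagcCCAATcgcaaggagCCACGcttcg
Calr, chr8:84847075-84847093, + strand: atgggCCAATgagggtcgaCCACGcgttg
Canx, chr11:50325800-50325818, - strand: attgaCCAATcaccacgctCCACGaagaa
Creld2, chr15:88819520-88819538, - strand: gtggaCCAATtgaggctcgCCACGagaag
Dnajc3, chr14:118937827-118937845, + strand: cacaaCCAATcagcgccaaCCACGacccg
Pdia6, chr12:17266491-17266509, + strand: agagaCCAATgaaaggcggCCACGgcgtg
Syvn1, chr19:6046532-6046550, + strand: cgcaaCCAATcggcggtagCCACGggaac
Derl3, chr10:75893242-75893260, - strand: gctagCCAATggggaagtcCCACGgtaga

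In these 9 genes the first base of the element lay between 212 and 44 bases before the gene start. The related element ERSE-II, searched as ATTGG, 1 base of any kind and CCACG, was found in Herpud1 and Dnajb11, 2 of 32 genes (6.25%), against 12 of 27025 genes in all (0.0444%). Its first base lay 52 bases before the start in Herpud1 and 7 bases after it in Dnajb11. These starts are those of the RefSeq promoters, and the deposited spans of Herpud1 and P4hb begin further downstream. For 26 of 33 member promoters, the first 30 bases after the start lay in a GENCODE M21 transcript of the gene. Positions and missing matches are thus uncertain for some genes. The UPRE core TGACGTGG was found in 0 of the 32 genes and in 193 of all 27025 (0.714%). Only exact letters were counted, so near matches are left out. Hsp90b1 held 2 ERSE matches. Each other gene with ERSE held 1, and these ran from Derl3, at least 2-fold lower, to Pdia6, at least 2-fold higher. In the comparison Hspa5, which encodes BiP, stood apart from the other large chaperones, while Hsp90b1 lay among them. The 250 bases before the starts of Hspa5 and Hsp90b1 are shown for that reason. They read along each gene, with ERSE matches on either strand in capitals. They lie at chr2:34771840-34772089 (+ strand) and chr10:86705445-86705694 (- strand) of GRCm38.p6.
Hspa5: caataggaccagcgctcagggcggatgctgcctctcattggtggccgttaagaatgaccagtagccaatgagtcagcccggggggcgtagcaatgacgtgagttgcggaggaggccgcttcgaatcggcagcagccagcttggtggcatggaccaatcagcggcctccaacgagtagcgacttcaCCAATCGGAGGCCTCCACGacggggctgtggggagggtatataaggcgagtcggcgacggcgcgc
Hsp90b1: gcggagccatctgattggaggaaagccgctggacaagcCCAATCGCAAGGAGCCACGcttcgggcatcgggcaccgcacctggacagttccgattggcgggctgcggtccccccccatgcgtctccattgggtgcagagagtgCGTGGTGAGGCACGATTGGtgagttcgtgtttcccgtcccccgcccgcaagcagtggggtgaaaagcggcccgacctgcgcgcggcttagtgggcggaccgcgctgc

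A gene counted as measured when its 2 libraries averaged 1 CPM or more, which 37 members did. Of these 37, 22 were at least 2-fold higher in expanded cells, 2 were at least 2-fold lower (Dnajb9 and Derl3) and 13 lay between. Over all 11715 measured genes, 22.4% were at least 2-fold higher and 25.0% at least 2-fold lower. The member left out, Sec61g, is described with its complex below. Calls use the log2 fold with a prior count of 2, which was at least 1 for higher and at most -1 for lower. The median log2 fold of the 37 members was 1.29, beside 0.04 over all genes. At least 4-fold higher were 9 of the 37, beside 8.92% of all genes. With scaling by total count this count was 4, beside 8.08% of all genes. Most members are abundant, and among genes averaging 50 CPM or more, 21 of 34 members (61.8%) were at least 2-fold higher, beside 22.1% of all 4725 such genes. Together the 38 genes took 2.04% of all counts in the expanded library, with Clopper-Pearson 95% limits of 2.04 and 2.05%. In the freshly isolated library they took 0.893%, with limits of 0.889 and 0.897%. With levels set per gene length and to a common total (TPM), a scaling added after the data were seen, the log2 fold of every gene was lower by a constant and the all-gene median dropped by 0.40. On that scale 18 members were at least 2-fold higher and 3 at least 2-fold lower, beside 15.0% and 32.6% of all genes, and 3 were at least 4-fold higher, beside 7.11%.

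**Figure D1:**
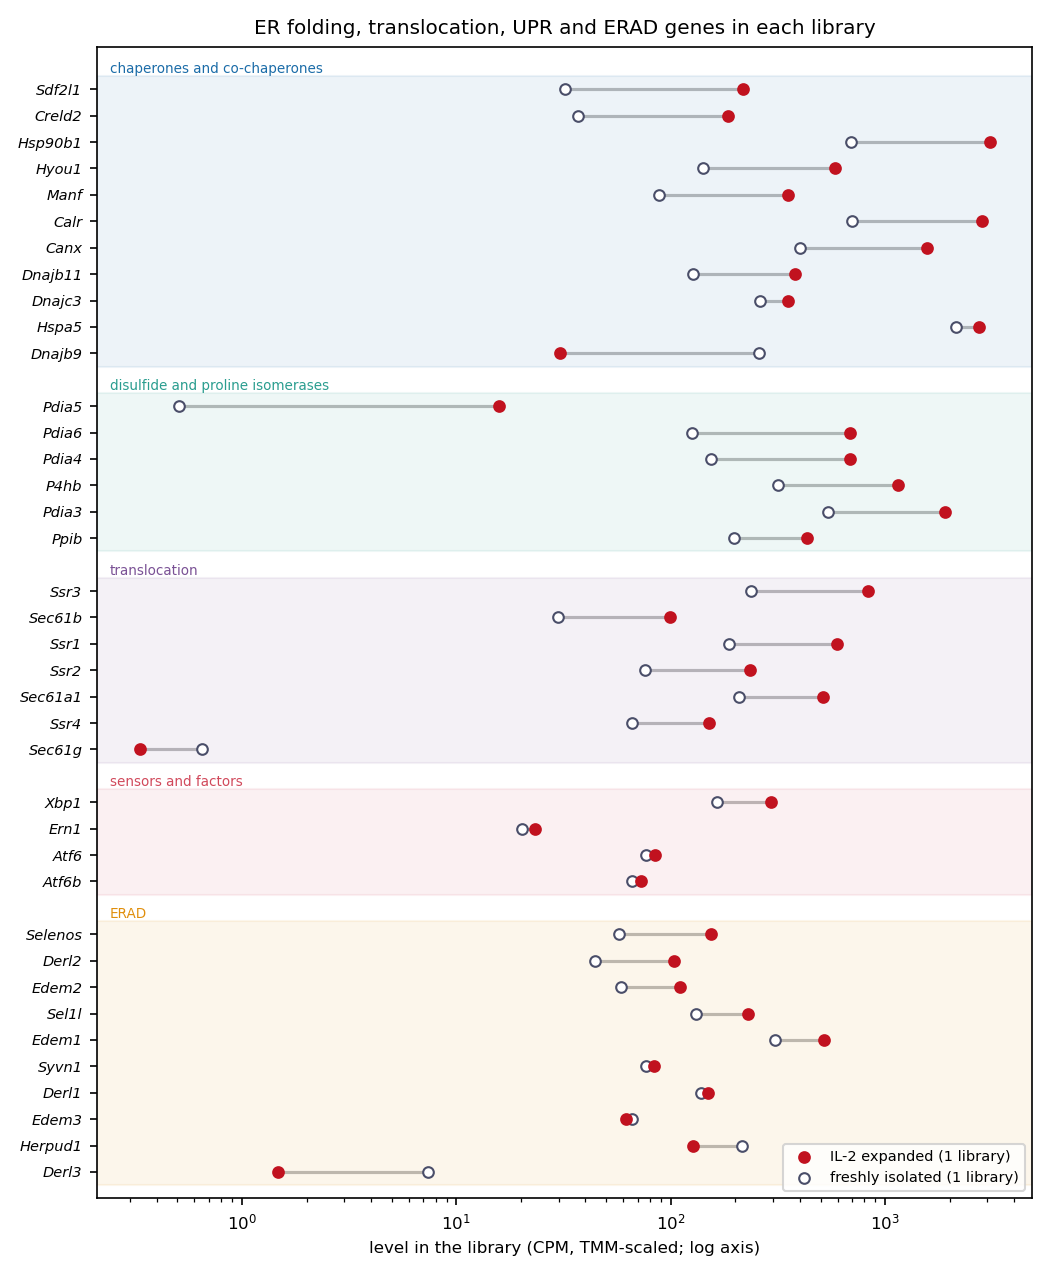
Level of each of the 38 genes in CPM (horizontal log axis) in the IL-2 expanded library (filled points) and the freshly isolated library (open points), 1 library each, with genes in rows grouped by role. The filled points lie right of the open ones for most folding and translocation genes, and left of them for Dnajb9, Derl3, Herpud1, Sec61g and Edem3.

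Among the members, folding and translocation genes and the sensor and ERAD genes stood apart. Of 23 measured folding and translocation genes, 20 were at least 2-fold higher in expanded cells, 1 was lower and 2 lay between, with a median log2 fold of 1.81 and an interquartile range from 1.43 to 2.10. Of 14 sensor and ERAD genes, 2 were at least 2-fold higher, 1 was lower and 11 lay between, with a median of 0.17 and an interquartile range from 0.11 to 0.83. Over all genes 22.4% were at least 2-fold higher and 25.0% lower, and the interquartile range was -1.0 to 0.89. The highest log2 fold among sensor and ERAD genes was 1.41, for Selenos, and 17 of the 23 folding and translocation genes lay above it. The difference of the medians was 1.64 on the log2 scale. Without the members whose deposited span overlaps another row of the table, it was 1.01, with a sensor and ERAD median of 0.75. Among the fewer members left, 11 were at least 2-fold higher, a count that is not comparable with the 22 of all 37 measured members. Several of the overlapping rows span over 3 Mb. With those rows ignored, a choice made after the data were seen, the difference was 1.64. Summed levels of folding and translocation genes were 19574 CPM in expanded and 7025 CPM in freshly isolated cells, a ratio of 2.79. Those of sensor and ERAD genes were 2011 CPM in expanded and 1430 CPM in freshly isolated cells, a ratio of 1.41. In further genes of these pathways, outside the members, the contrast of medians was smaller or absent. Their median log2 folds were 0.29 for ER folding, 0.89 for translocation and 0.34 for ERAD genes. The gene of the sensor PERK, Eif2ak3, also outside the members, was 3.07-fold higher.

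**Figure D2:**
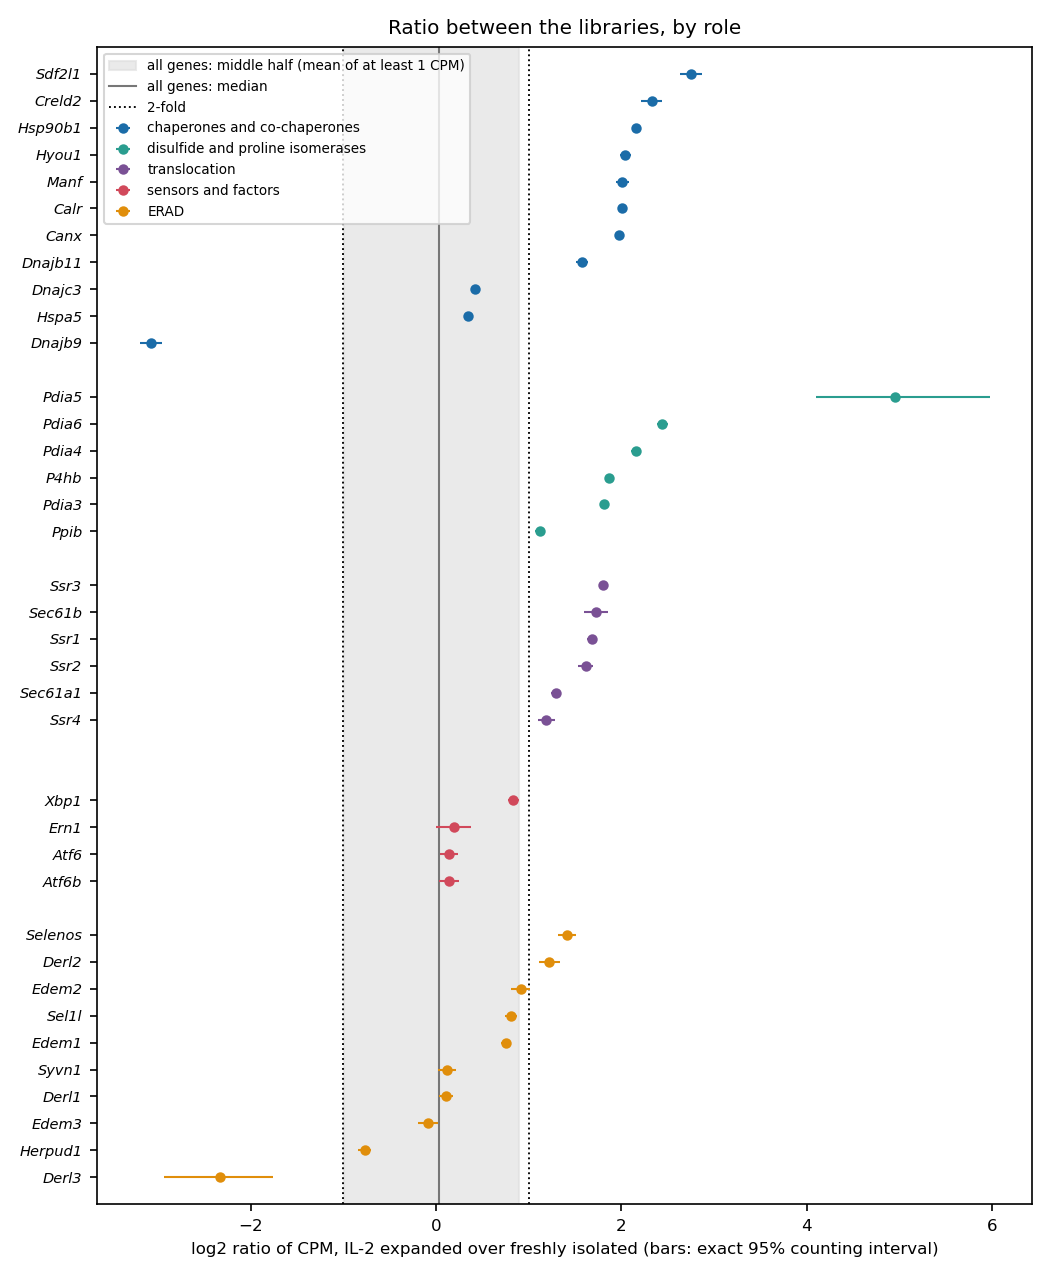
Log2 ratio of CPM, IL-2 expanded over freshly isolated, for the 37 measured genes (points, coloured by role) with exact 95% counting intervals (bars), the all-gene median (grey line), the all-gene interquartile range (grey band) and 2-fold limits (dotted). Most chaperones, all isomerases and all measured translocation genes lie right of the upper 2-fold limit, while the 4 sensors and factors lie inside the limits.

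Among the chaperones, 8 of 11 were at least 2-fold higher in expanded cells, and BiP was not one of them. Hsp90b1, the HSP90-type chaperone of the ER, had 3067 CPM in expanded and 689 CPM in freshly isolated cells, 4.45-fold higher (interval 4.37 to 4.53). Its transcript shared 13.8% of its 50-base stretches with 3 other annotated genes. Calr, which encodes the glycan-binding chaperone calreticulin, had 2816 CPM in expanded and 703 CPM in freshly isolated cells, 4.01-fold higher (3.93 to 4.08). Its membrane-bound partner Canx, for calnexin, had 1573 CPM in expanded and 399 CPM in freshly isolated cells, 3.94-fold higher (3.85 to 4.04). These abundant chaperones thus lay within a narrow span of folds. Some less abundant cofactors had higher folds. Sdf2l1, which works with BiP and its DnaJ partners (chr16:17130138-17132383, GRCm38, as deposited), had 217 CPM in expanded and 32.2 CPM in freshly isolated cells, 6.73-fold higher (6.21 to 7.30). Creld2, an ER stress-inducible protein with disulfide isomerase activity, had 185 CPM in expanded and 37.0 CPM in freshly isolated cells, 5.01-fold higher (4.64 to 5.42). Hyou1, an HSP70-related nucleotide exchange factor of BiP, was 4.12-fold higher (585 CPM in expanded and 142 CPM in freshly isolated cells), and Manf, a secreted and ER-resident trophic factor that binds BiP, 4.03-fold higher (354 CPM in expanded and 87.7 CPM in freshly isolated cells). Dnajb11, a DnaJ co-chaperone of BiP, was 2.98-fold higher (379 CPM in expanded and 127 CPM in freshly isolated cells).

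Hspa5, the gene of BiP (chr2:34772090-34776529, GRCm38, as deposited), was the member with most counts in freshly isolated cells and differed little between the libraries. It had 2734 CPM in expanded and 2147 CPM in freshly isolated cells, 1.27-fold higher (interval 1.26 to 1.29), while its log2 fold was -0.05 on the TPM scale. Dnajc3, a DnaJ co-chaperone of BiP that also inhibits PERK, was near it at 351 CPM in expanded and 261 CPM in freshly isolated cells, 1.34-fold higher (1.30 to 1.39). On the TPM scale the log2 fold of Dnajc3 was 0.03. Dnajb9, a DnaJ protein that binds BiP and represses IRE1 (chr12:44205897-44210068, GRCm38, as deposited), went the other way. It had 641 counts (30.5 CPM) in expanded and 5539 counts (257 CPM) in freshly isolated cells, 8.44-fold lower (7.78 to 9.17). Its transcript shared 5.80% of its 50-base stretches with another annotated gene. Of the 3 members with these lowest folds among the chaperones, Hspa5 and Dnajc3 carry the ERSE shown above and Dnajb9 has no match to any of the 3 motifs in its window.

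Levels per length, in CPM per kilobase of the deposited gene length, set members beside each other, but they are uncertain because the source of that length is not known. The closest GENCODE M21 transcript was within 10% of the deposited length for 26 of the 38 members. Its length ranged from 0.642 times the deposited one (Edem3) to 1.53 times (Ern1), and for Dnajb9 it was 1.32 times. With transcript lengths, a choice made after the data were seen, Calr, Hsp90b1 and Hspa5 kept the ranks given next in both libraries. Calr was first of all members in expanded cells, at 1456 CPM per kilobase, followed by Hsp90b1 at 1119 and Hspa5 at 1048. In freshly isolated cells Hspa5 was first at 823 CPM per kilobase, ahead of Calr at 364 and Hsp90b1 at 252. Per length, Hsp90b1 stood at 1.07 times the level of Hspa5 in expanded cells and at 0.306 times in freshly isolated cells. Calr stood at 1.39 times the level of Hspa5 in expanded and at 0.442 times in freshly isolated cells, and Sdf2l1 at 0.187 times in expanded and 0.0354 times in freshly isolated cells. Dnajc3 kept about the same ratio to Hspa5 in both libraries, 0.0647 in expanded and 0.0613 in freshly isolated cells. Dnajb9 stood at 0.0156 times the level of Hspa5 in expanded and at 0.168 times in freshly isolated cells. It was 32nd of the 38 members in expanded cells and 6th in freshly isolated cells, or 8th there with transcript lengths. Summed over the 11 chaperones, levels were 12290 CPM in expanded and 4883 CPM in freshly isolated cells, a ratio of 2.52. Without Hspa5 they were 9556 CPM in expanded and 2736 CPM in freshly isolated cells, a ratio of 3.49.

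**Figure D3:**
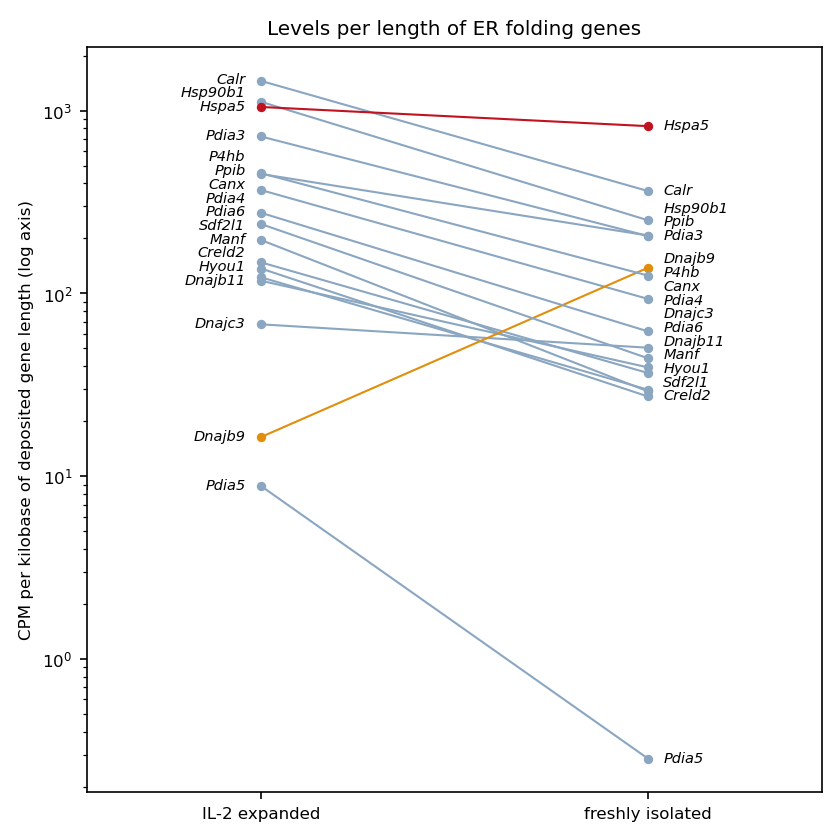
Level per length (CPM per kilobase of deposited gene length, vertical log axis) of the 17 chaperone, disulfide isomerase and proline isomerase genes in the IL-2 expanded library (left) and the freshly isolated library (right), 1 line per gene. Hspa5 (red) and Dnajc3 differ little and Dnajb9 (orange) is 8.44-fold lower in expanded cells, while the other lines are higher on the left.

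The 5 protein disulfide isomerases among the members, which form and rearrange disulfide bonds, were each at least 2-fold higher in expanded cells, with log2 folds from 1.81 up and a median of 2.15. They are not the whole family, and Txndc5, Dnajc10, Txndc12 and Erp44, which belong to it but are not members, lay within 2-fold (log2 folds of -0.16, 0.06, 0.23 and 0.91). Erp29, of the same family and also not a member, was 2.26-fold higher (log2 fold 1.17). Pdia3, the isomerase that works with calnexin and calreticulin, had 1900 CPM in expanded and 542 CPM in freshly isolated cells, 3.5-fold higher (interval 3.43 to 3.58). P4hb, which encodes protein disulfide isomerase itself and is also a subunit of prolyl 4-hydroxylase, had 1150 CPM in expanded and 317 CPM in freshly isolated cells, 3.63-fold higher (3.54 to 3.73). Pdia4 was 4.46-fold higher (683 CPM in expanded and 153 CPM in freshly isolated cells). Pdia6, which binds BiP and IRE1, was 5.43-fold higher (684 CPM in expanded and 126 CPM in freshly isolated cells). The fold of Pdia5 (chr16:35397312-35490873, GRCm38, as deposited) was the highest of all members and rests on few counts. It had 333 counts (15.8 CPM) in expanded and 11 counts (0.511 CPM) in freshly isolated cells, 31.0-fold higher (17.1 to 62.7). Ppib, a proline isomerase of the ER (cyclophilin B), had 430 CPM in expanded and 198 CPM in freshly isolated cells, 2.17-fold higher (2.09 to 2.25). Its log2 fold was 1.12, and it was under the 2-fold limit at 0.96 with scaling by total count and at 0.72 on the TPM scale. The Ppib transcript shared 53.4% of its 50-base stretches with Snx22 and another annotated gene, so its level is uncertain.

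The 6 measured genes of the translocation channel and its partners were all at least 2-fold higher, over a span of log2 folds from 1.19 to 1.80. Sec61a1, the pore subunit of the SEC61 channel, had 512 CPM in expanded and 209 CPM in freshly isolated cells, 2.45-fold higher (interval 2.36 to 2.54). Sec61b, a small subunit, had 99.0 CPM in expanded and 29.9 CPM in freshly isolated cells, 3.31-fold higher (3.03 to 3.63). The gene of the other small subunit, Sec61g, had 7 counts in expanded and 14 counts in freshly isolated cells, under the limit of a mean of 1 CPM. Per length this was 0.430 CPM per kilobase in expanded and 0.839 in freshly isolated cells, while Sec61b stood at 181 CPM per kilobase in expanded and 54.5 in freshly isolated cells. The 3 subunits share 44.4% (Sec61g), 41.0% (Sec61b) and 14.6% (Sec61a1) of their 50-base stretches with other annotated genes, and how reads matching several places were counted is not given in the sources used here, so their levels are uncertain. The SSR genes encode the 4 subunits of the translocon-associated protein complex, which sits beside the channel. Ssr3 had 828 CPM in expanded and 237 CPM in freshly isolated cells, 3.49-fold higher (3.38 to 3.60), and Ssr1 had 598 CPM in expanded and 187 CPM in freshly isolated cells, 3.21-fold higher. Ssr2 was 3.06-fold higher (233 CPM in expanded and 76.2 CPM in freshly isolated cells) and Ssr4 2.28-fold higher (150 CPM in expanded and 65.9 CPM in freshly isolated cells). On the TPM scale Sec61a1 (log2 fold 0.89) and Ssr4 (0.79) were under the 2-fold limit.

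The 4 UPR sensors and factors among the members all lay within 2-fold, beside 52.6% of all measured genes. Ern1, which encodes the sensor IRE1α, had 488 counts (23.2 CPM) in expanded and 437 counts (20.3 CPM) in freshly isolated cells, a ratio of 1.14 (interval 1.0 to 1.30). Atf6 had 84.3 CPM in expanded and 76.5 CPM in freshly isolated cells, a ratio of 1.10 (1.03 to 1.18). Its paralog Atf6b had 72.8 CPM in expanded and 66.1 CPM in freshly isolated cells, also a ratio of 1.10 (1.02 to 1.18). Atf6 and Atf6b were lower in expanded cells with scaling by total count (log2 folds of -0.02 each), and Ern1, Atf6 and Atf6b were lower on the TPM scale (-0.21, -0.26 and -0.26), so no direction is given for these 3 genes. Xbp1, the factor whose mRNA IRE1 splices, had 294 CPM in expanded and 165 CPM in freshly isolated cells, 1.78-fold higher (1.71 to 1.86), and its log2 fold was positive under every scaling tried. Per deposited length, Xbp1 was 17th of the 38 members in expanded and 11th in freshly isolated cells, whereas Atf6 was 33rd and Ern1 36th in both.

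Most ERAD genes lay within 2-fold (7 of 10), with 2 at least 2-fold higher and 1 lower, and members of the same small family differed. The derlins are membrane proteins of the retrotranslocation machinery. Derl2 had 104 CPM in expanded and 44.6 CPM in freshly isolated cells, 2.33-fold higher (interval 2.16 to 2.52), with a log2 fold of 1.22 that was 0.82 on the TPM scale. Derl1 had 149 CPM in expanded and 138 CPM in freshly isolated cells, and its log2 fold of 0.11 was -0.05 with scaling by total count and -0.29 on the TPM scale. Derl3, a derlin known from plasma cells and other secretory cells (chr10:75893398-75895941, GRCm38, as deposited), had 31 counts (1.47 CPM) in expanded and 159 counts (7.39 CPM) in freshly isolated cells, 5.01-fold lower (3.39 to 7.62). The 3 derlins thus spanned the range from lower through level to higher. Jchain, a gene of antibody-secreting cells, had 0 counts in expanded and 784 CPM in freshly isolated cells, and the part of plasma cells in the level of Derl3 was not tested.

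The EDEM genes encode proteins that trim mannose from misfolded glycoproteins. Edem2 had 110 CPM in expanded and 58.6 CPM in freshly isolated cells, 1.88-fold higher (interval 1.76 to 2.02). Edem1 had 518 CPM in expanded and 308 CPM in freshly isolated cells, 1.68-fold higher (1.63 to 1.73). Edem3 had 61.9 CPM in expanded and 65.8 CPM in freshly isolated cells, with an interval of the fold from 0.872 to 1.02 that includes no difference. Sel1l and Syvn1 form the core of the HRD1 ubiquitin ligase complex, and the adaptor and the ligase were apart. Sel1l had 230 CPM in expanded and 131 CPM in freshly isolated cells, 1.75-fold higher (1.67 to 1.84), and Syvn1 had 83.3 CPM in expanded and 76.8 CPM in freshly isolated cells, with a log2 fold of 0.12 that was -0.04 with scaling by total count and -0.28 on the TPM scale. Herpud1, a membrane protein that binds the same complex and is induced early in the UPR, had 126 CPM in expanded and 215 CPM in freshly isolated cells, 1.70-fold lower (1.62 to 1.79). On the TPM scale Herpud1 passed the 2-fold limit (log2 fold -1.17). Selenos, a selenoprotein that recruits the p97 ATPase to derlins, had 153 CPM in expanded and 57.6 CPM in freshly isolated cells, 2.66-fold higher (2.49 to 2.85).

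The 3 members lower in expanded cells under every scaling tried and by over 1.5-fold were Dnajb9, Derl3 and Herpud1. The 13 immediate early and dissociation genes, which respond quickly to stimulation or tissue handling, summed to 791 CPM in expanded and 17691 CPM in freshly isolated cells. Of these, 1 was at least 2-fold higher and 11 (84.6%) were lower in expanded cells, beside 25.0% of all genes lower. The B cell and plasma cell markers were also lower in expanded cells, as given above. The part of either in the levels of these 3 genes was not tested. Without these 3 genes, a choice made after the data were seen, the median log2 fold of the remaining sensor and ERAD genes was 0.47, and the difference of the medians was 1.36.

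Genes with and without an ERSE match both spanned all 3 classes of fold. Of the 9 genes with an ERSE match, 5 were at least 2-fold higher (Hsp90b1, Calr, Canx, Creld2 and Pdia6), 3 lay between (Hspa5, Dnajc3 and Syvn1) and 1 was lower (Derl3). Of the 22 measured genes with a promoter and no such match, 13 were at least 2-fold higher, 8 lay between and 1 was lower (Dnajb9). The medians of the log2 fold were 1.98 with and 1.21 without a match. The ERSE-II genes were likewise apart, with Dnajb11 2.98-fold higher and Herpud1 1.70-fold lower in expanded cells. By role, 6 of 9 chaperone promoters, 1 of 6 isomerase promoters, 0 of 5 translocation genes, 0 of 3 sensors and factors and 2 of 9 ERAD genes held ERSE, while all 6 isomerases and all measured translocation genes were at least 2-fold higher. A match of letters is a description and not a site shown to be bound.

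**Figure D4:**
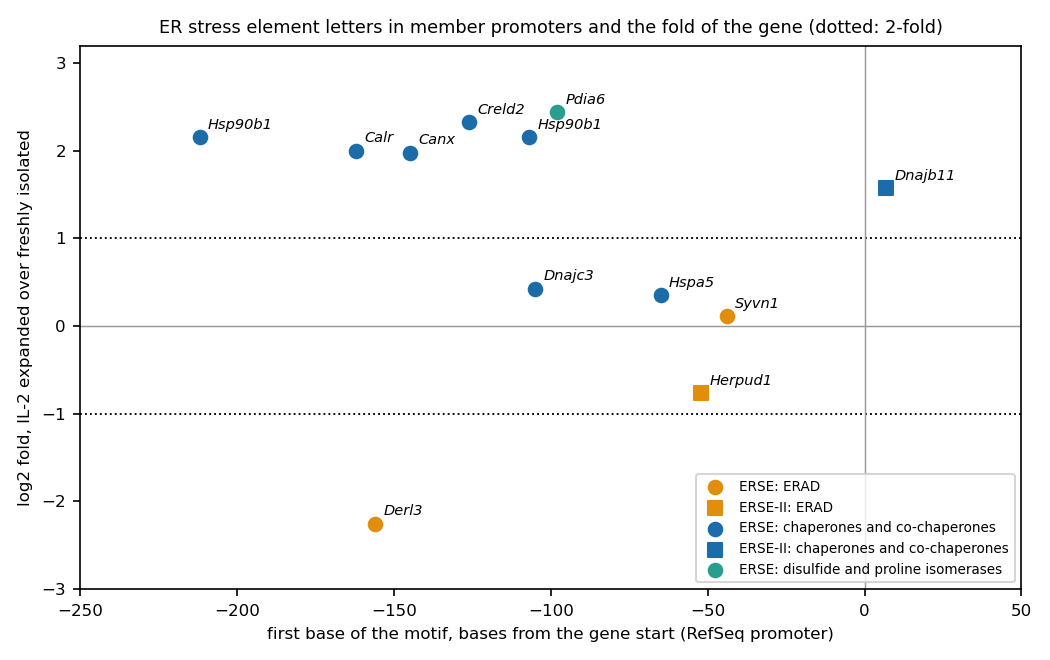
Position of the first base of each ERSE (circles) and ERSE-II (squares) match relative to the gene start (horizontal axis, in bases) against the log2 fold of the gene, IL-2 expanded over freshly isolated (vertical axis), coloured by role, with 2-fold limits dotted. The genes with a match run from Derl3 at -2.25 to Pdia6 at 2.44, and the Dnajb11 match lies after the gene start, at position 7.

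Other genes of the same pathways, listed by function, are given for comparison. Of 19 measured further ER folding genes, 5 (26.3%) were at least 2-fold higher, 1 was lower and 13 lay between, with a median log2 fold of 0.29. Over all measured genes 22.4% were at least 2-fold higher and 25.0% lower, so the share higher was near that of all genes. Ero1l, the oxidase that recharges the disulfide isomerases, had 416 CPM in expanded and 44.3 CPM in freshly isolated cells, 9.38-fold higher (interval 8.77 to 10.03). Fkbp11, a proline isomerase, was 5.34-fold higher (4.71 CPM in expanded and 0.883 CPM in freshly isolated cells). Fkbp7, also a proline isomerase, was furthest down at 0.476 CPM in expanded and 1.63 CPM in freshly isolated cells. Next was Qsox1, a sulfhydryl oxidase, at 30.6 CPM in expanded and 59.5 CPM in freshly isolated cells.

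Of 16 further translocation and signal peptide genes, 6 (37.5%) were at least 2-fold higher and 0 lower, with a median log2 fold of 0.89. Over all genes 22.4% were higher and 25.0% lower. Srp19, a subunit of the signal recognition particle, was furthest up at 130 CPM in expanded and 33.1 CPM in freshly isolated cells, 3.93-fold higher. Spcs3, a signal peptidase subunit, was next at 439 CPM in expanded and 141 CPM in freshly isolated cells, 3.11-fold higher. Sec62, which serves post-translational entry, had 190 CPM in expanded and 189 CPM in freshly isolated cells, and the signal peptidase subunit Sec11a 115 CPM in expanded and 96.1 CPM in freshly isolated cells. Of 20 further ERAD genes, 1 (5.0%) was at least 2-fold higher, 0 were lower and 19 lay between, with a median of 0.34. The higher one was Vcp, which encodes the p97 ATPase, at 241 CPM in expanded and 80.6 CPM in freshly isolated cells, 2.99-fold higher. Its cofactor Nploc4 was next at 198 CPM in expanded and 101 CPM in freshly isolated cells. Ube2g2 and Ube2j1, ubiquitin-conjugating enzymes of ERAD, were furthest down. Ube2g2 had 56.9 CPM in expanded and 104 CPM in freshly isolated cells, and Ube2j1 had 146 CPM in expanded and 192 CPM in freshly isolated cells.

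**Figure D5:**
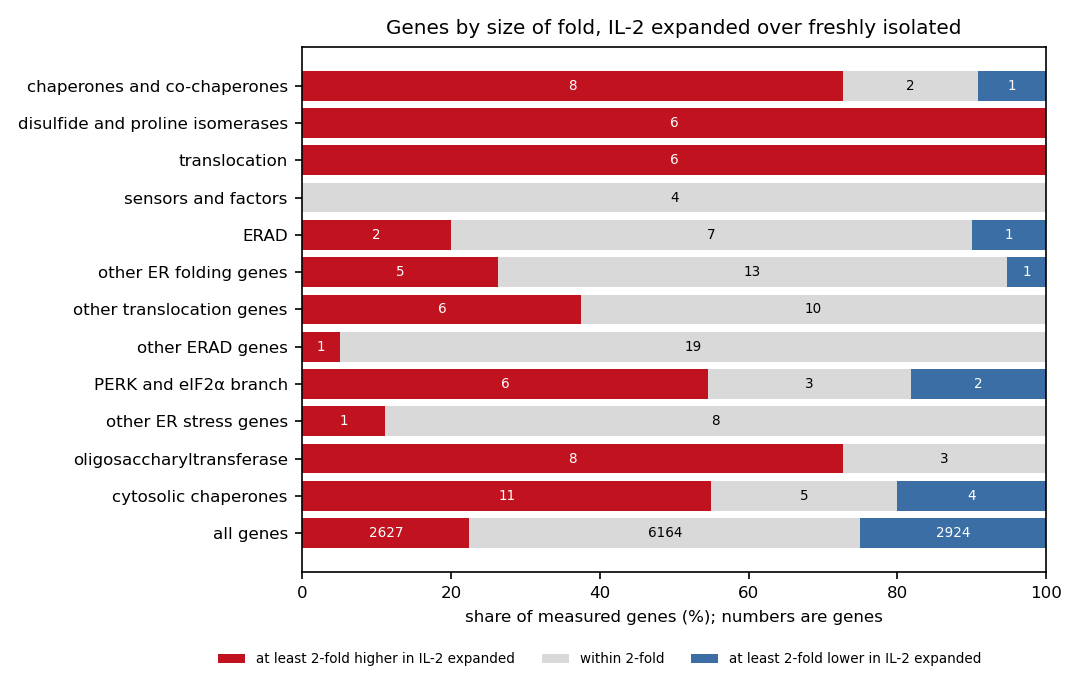
Share of measured genes (horizontal axis, in percent) at least 2-fold higher in the IL-2 expanded library (red), within 2-fold (grey) or at least 2-fold lower in it (blue), for the 5 roles of the members, 7 further gene lists and all genes, with gene numbers printed in the bars. Of the 5 roles, isomerases and translocation genes are all at least 2-fold higher, and sensors and factors are all within 2-fold.

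The branch of the UPR that runs through PERK and the initiation factor eIF2α is not among the members, and its genes went both ways. Of 11, 6 (54.5%) were at least 2-fold higher, 2 (18.2%) were lower and 3 lay between, with a median log2 fold of 1.62. Over all genes 22.4% were higher and 25.0% lower. Eif2ak3, which encodes the sensor PERK, had 197 CPM in expanded and 64.2 CPM in freshly isolated cells, 3.07-fold higher (interval 2.89 to 3.26). Trib3, a pseudokinase gene induced by ATF4, had 88.7 CPM in expanded and 1.30 CPM in freshly isolated cells (28 counts), 68.2-fold higher (47.0 to 103). Chac1, a glutathione-degrading enzyme gene of the same response, was 14.9-fold higher (15.3 CPM in expanded and 1.02 CPM in freshly isolated cells), and Sesn2, a stress-induced regulator of mTORC1, 10.6-fold higher (83.3 CPM in expanded and 7.90 CPM in freshly isolated cells). Atf4 had 563 CPM in expanded and 712 CPM in freshly isolated cells, and Ddit3, which encodes CHOP, had 33.3 CPM in expanded and 41.3 CPM in freshly isolated cells. Ppp1r15a, the stress-induced phosphatase subunit that ends eIF2α phosphorylation, had 40.4 CPM in expanded and 1055 CPM in freshly isolated cells, 26.1-fold lower. Atf3, also an immediate early gene, had 19.4 CPM in expanded and 269 CPM in freshly isolated cells, 13.8-fold lower.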

How the data were processed

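Total RNA was sequenced, and the authors deposited raw read counts for each gene, whole numbers with no scaling, beside symbols, spans and a length in kilobases. How that length, an other kind of value deposited by the authors, was derived is not given in the sources used here. The counts come from a workflow in which HTSeq 0.6.0 and STAR 2.6.0 appear with edgeR 3.28.1 and bcl2fastq 2.18.0.12, on builds GRCm38 and mm10, per the submitters' processing notes. Their settings, the annotation and the use of strand are not given in the sources used here, so counts of overlapping genes are uncertain.

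Columns were matched to libraries by name. Counts were scaled with TMM factors in edgeR 4.0.16 (0.947 for the expanded, 1.06 for the freshly isolated library) to CPM. Log2 folds used a prior count of 2, and single folds are plain ratios of CPM. No test could be made with 1 library per group, so genes averaging 1 CPM or more over both libraries were sorted by size of fold, across the whole table. The calculation was tested on simulated counts with planted changes, drawn with counting error alone. Such a test checks the calculation and says nothing of variation between libraries. Without molecular identifiers, reads do not stand for single molecules, and the intervals hold counting error alone. Members and gene lists were chosen with earlier results of these data known. All 192 list entries matched a row, 2 of them by an older symbol. Named are all members, and of other lists mainly the 2 furthest up and the 2 furthest down. Txndc5, Dnajc10, Txndc12, Erp44 and Erp29 were chosen after their values were seen. Fkbp14 and Pdia2, under the limit of 1 CPM, are not described. All members lay within 5 kb of their RefSeq spans on GRCm38.p6, 25 of 38 identically. Stretches of 50 bases were compared with GENCODE M21 transcripts. Protein sequences were not used here.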

Additional observations from a re-analysis of the deposited data

How the results depend on the processing

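The count of members at least 2-fold higher was 21 with scaling by total count and 22 with DESeq2 1.42.0 size factors, upper quartiles, totals less each library's 50 most abundant genes, prior counts of 0.5 or 5 and other filters. The median log2 fold of folding and translocation genes was 1.65 with total count, 1.74 with upper quartiles, 1.73 without the 50 most abundant genes and 1.41 with TPM. That of sensor and ERAD genes was 0.00905 with total count and -0.23 with TPM. The count of members at least 4-fold higher was 4 with total count and 3 with TPM, and 6 or 7 with the other scalings. Moves under another scaling follow from its construction, which shifts all genes alike. With a mean of at least 5 CPM, 1 member was lower, since Derl3 was left out. Leaving out all members whose deposited span overlaps another row gave 11 higher members (4 of them at least 4-fold), medians of 1.76 and 0.75 and a difference of 1.01, with fewer members compared. Several of these rows span over 3 Mb, and those were then ignored, a choice made after the data were seen. With that, 16 were higher, again among fewer members, and the difference was 1.64. Counts from these reduced sets are not comparable with the 22 of all 37 measured members. Without Derl3, Dnajb9 and Herpud1, also chosen after the data were seen, 0 members were lower, the sensor and ERAD median was 0.47 and the difference was 1.36. Of 259 values of single members under 7 alternatives, 10 changed sign and 6 crossed the 2-fold limit. All 10 belonged to genes within 2-fold. No paired analysis was possible because each group has 1 library.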

Other observations

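Genes that work next to the members in the ER or do the same work in the cytosol were also compared. The oligosaccharyltransferase attaches glycans to proteins as they enter the ER. Of its 11 measured genes, 8 (72.7%) were at least 2-fold higher in expanded cells, 0 were lower and 3 lay between, with a median log2 fold of 1.58. Over all genes 22.4% were higher and 25.0% lower. Rpn1, a subunit that guides substrates, had 630 CPM in expanded and 114 CPM in freshly isolated cells, 5.53-fold higher (interval 5.30 to 5.77). Stt3b, a catalytic subunit, had 666 CPM in expanded and 139 CPM in freshly isolated cells, 4.78-fold higher. Furthest down were Tusc3, at 29.2 CPM in expanded and 36.2 CPM in freshly isolated cells, and Dad1, at 114 CPM in expanded and 125 CPM in freshly isolated cells.

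Of 20 cytosolic chaperone genes, 11 were at least 2-fold higher, 4 were lower and 5 lay between, with a median log2 fold of 1.10. Cct6a, a subunit of the chaperonin that folds actin and tubulin, had 656 CPM in expanded and 194 CPM in freshly isolated cells. Hspa4, an HSP70-related exchange factor, had 659 CPM in expanded and 237 CPM in freshly isolated cells. The stress-inducible HSP70 genes Hspa1a and Hspa1b were furthest down, and both are also among the immediate early and dissociation genes counted above. Hspa1a had 3 counts in expanded and 463 counts in freshly isolated cells, and Hspa1b had 19 counts in expanded and 746 counts in freshly isolated cells. These near-identical genes share reads, so the division of counts between them is uncertain. Of 9 further ER stress genes, 1 (11.1%) was at least 2-fold higher and 8 lay between. The higher one was Prdm1, which encodes the factor BLIMP1 of plasma cells and effector T cells, at 66.7 CPM in expanded and 21.6 CPM in freshly isolated cells.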
